A study of Mus musculus with 24 samples.

Results

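The 8 genes described here carry the insulin signal of the fat cell from the cell surface to glucose uptake, lipolysis and transcription, and they were chosen by name: Insr, Irs1, Irs2, Pik3r1, Akt2, Slc2a4, Pde3b and Foxo1. All 8 were found by their gene symbol among the 16730 genes of the deposited count table, 14067 of which carry a symbol, and all 8 passed the filter on low counts that left 15020 genes for testing. RNA came from the epididymal white adipose tissue (eWAT) of 24 male mice and was measured by QuantSeq, a method that sequences 1 tag near the 3′ end of each transcript. The mice formed 4 groups of 6, Lama4 fl/fl or Lama4 AKO on chow and Lama4 fl/fl or Lama4 AKO on a high-fat diet (HFD). In Lama4 fl/fl mice, exon 3 of the laminin alpha 4 gene is flanked by loxP sites, and these floxed littermates without Cre are the controls. Lama4 AKO mice carry the same floxed alleles together with Cre driven by the adiponectin promoter, which directs it to adipocytes. All mice were on the C57BL/6J background, ate breeder chow or a diet with 45% fat for 20 weeks, and were 24 to 26 weeks old at collection. In the study's figure legends, chow was fed from weaning to 24 weeks of age and HFD from 6 to 26 weeks. Age and feeding schedule may thus differ with diet, and their effects cannot be told apart from that of the diet. The comparisons ask how the diet changed these transcripts in each genotype, how the deletion changed them on each diet, and whether the effect of the diet differed between the genotypes.

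Insulin binds its receptor, a tyrosine kinase that phosphorylates the insulin receptor substrates, and these recruit phosphoinositide 3-kinase (PI3K). The lipid that PI3K makes leads to the activation of the kinase AKT, and in adipocytes AKT moves vesicles with the glucose transporter GLUT4 to the cell surface, restrains lipolysis through the phosphodiesterase PDE3B and keeps the transcription factor FOXO1 out of the nucleus. Signaling itself runs through phosphorylation, which RNA counts do not measure.

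Library totals ranged from 5579590 to 18764516 counts, and the shallowest library was chow-fed Lama4 AKO replicate 5. Levels are given as CPM, the counts of a gene scaled to a common library total, after adjustment of the libraries by the trimmed mean of M values (TMM). The defining markers of adipocytes were present in every group: all 10 listed markers were measured, and none was at 0 in all libraries of a group. Lama4 itself stood at 98.4 ± 53.8 CPM (mean ± SD, n = 6) in chow-fed Lama4 fl/fl, 106 ± 25.9 in chow-fed Lama4 AKO, 82.5 ± 42.2 in HFD-fed Lama4 fl/fl and 51.2 ± 20.6 in HFD-fed Lama4 AKO mice. Tags at the 3′ end lie outside the deleted exon 3, so these values do not measure the loss of that exon. By quantitative PCR, the study reported lower Lama4 in eWAT of chow-fed Lama4 AKO mice than in controls. Here the log2 fold change of Lama4 AKO over Lama4 fl/fl on chow was 0.11 (SE 0.34, adjusted p = 0.98 by edgeR). The reason for this difference from the study was not tested, and these values do not check the genotype labels. The study set aside outlier libraries without naming them. A set of 19 mice, which leaves out chow-fed Lama4 fl/fl replicate 3, chow-fed Lama4 AKO replicate 5 and HFD-fed Lama4 fl/fl replicates 3, 4 and 6, was inferred in an earlier analysis of these data to be the set the study kept, and results that change in it are given both ways, for the lists of other pathway genes by their counts of calls. The labels name no batch, and the tests measure the spread between these mice.

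The receptor gene Insr lies on the minus strand at chr8:3122061-3279617 (GRCm38, as are all positions here). Its level was 29.7 ± 15.4 CPM (SD, n = 6 in each group here and in the next 3 paragraphs) in chow-fed Lama4 fl/fl, 31.6 ± 5.0 in chow-fed Lama4 AKO, 29.1 ± 8.24 in HFD-fed Lama4 fl/fl and 21.6 ± 1.8 in HFD-fed Lama4 AKO mice. The lowest, median and highest libraries were 25.5, 30.4 and 39.4 CPM in chow-fed Lama4 AKO and 20.3, 21.1 and 25.1 CPM in HFD-fed Lama4 AKO mice, so these 2 groups did not overlap, though by a narrow margin. The wide spread of the chow-fed controls came from replicate 1 at 60.7 CPM. Irs1 and Irs2 encode the 2 main docking proteins that the receptor phosphorylates. Irs1 (minus strand, chr1:82233101-82291416) was at 23.5 ± 15.3, 25.7 ± 8.18, 21.8 ± 11.7 and 12.4 ± 3.86 CPM in the same order of groups. Its last exon overlaps the antisense gene Gm9747, and since the sources used here do not say whether counting used the strand, some Irs1 counts may belong to that gene. Irs1 ranged from 16.3 to 36.8 CPM with a median of 25.1 in chow-fed Lama4 AKO and from 9.35 to 19.5 CPM with a median of 10.6 in HFD-fed Lama4 AKO mice, where 5 of the 6 libraries lay below every chow-fed Lama4 AKO library. Irs2 (minus strand, chr8:10984681-11008458) was at 42.2 ± 40.1, 34.5 ± 10.3, 39.5 ± 17.1 and 29.3 ± 4.37 CPM, with 1 chow-fed Lama4 fl/fl library at 123 CPM and the others of that group from 22.1 to 35.1 CPM. The 4 groups overlapped for Irs2, and no pair of neighbours in the order of their means differed beyond the spread.

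Pik3r1 encodes the p85α regulatory subunit of PI3K, which binds phosphorylated substrates and both stabilizes and holds in check the catalytic subunit. It lies on the minus strand at chr13:101680563-101768217 and has 4 coding transcripts with 4 start sites, which counts per gene do not separate. The level of Pik3r1 was 129 ± 44.5 CPM in chow-fed Lama4 fl/fl, 161 ± 45.8 in chow-fed Lama4 AKO, 94.6 ± 52.2 in HFD-fed Lama4 fl/fl and 48.9 ± 18.8 in HFD-fed Lama4 AKO mice. Its 6 chow-fed Lama4 AKO libraries ran from 83.5 through a median of 161 to 206 CPM and the 6 HFD-fed Lama4 AKO libraries from 32.1 through a median of 43.0 to 83.1 CPM, so the highest of the second group lay just under the lowest of the first. The HFD-fed Lama4 fl/fl libraries were far apart: replicates 1, 2 and 5 were at 37.0, 48.8 and 56.3 CPM, and replicates 3, 4 and 6, those outside the set of 19 mice, were at 135, 146 and 145 CPM. The same 3 libraries were also the highest of their group for Insr, Irs1 and Pde3b. Akt2, the AKT isoform most closely tied to glucose uptake (plus strand, chr7:27591552-27640826), was at 129 ± 51.4, 134 ± 26.2, 135 ± 49.6 and 125 ± 21.0 CPM and overlapped in every pair of groups.

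Slc2a4 encodes GLUT4, the transporter through which insulin raises glucose uptake in fat and muscle (minus strand, chr11:69942539-69948188). It was at 44.4 ± 27.8 CPM in chow-fed Lama4 fl/fl, 55.2 ± 31.5 in chow-fed Lama4 AKO, 54.2 ± 29.9 in HFD-fed Lama4 fl/fl and 25.8 ± 7.38 in HFD-fed Lama4 AKO mice. Its lowest, median and highest libraries were 20.8, 45.0 and 106 CPM in chow-fed Lama4 AKO, 26.4, 44.0 and 105 CPM in HFD-fed Lama4 fl/fl, and 18.5, 23.2 and 36.2 CPM in HFD-fed Lama4 AKO mice. HFD-fed Lama4 AKO was thus the lowest and narrowest group and overlapped the bottom of the other three. Pde3b, the cyclic nucleotide phosphodiesterase through which insulin suppresses lipolysis (plus strand, chr7:114415281-114539251), was at 178 ± 144, 159 ± 54.3, 147 ± 88.4 and 73.7 ± 25.7 CPM. It ranged from 94.1 to 254 CPM with a median of 150 in chow-fed Lama4 AKO and from 56.2 to 122 CPM with a median of 61.3 in HFD-fed Lama4 AKO mice, and 1 HFD-fed library, replicate 6, overlapped the chow-fed range. The chow-fed controls again held the highest library, replicate 1 at 467 CPM. Foxo1, a transcription factor that AKT inhibits (plus strand, chr3:52268336-52353221), was at 72.8 ± 22.6, 83.3 ± 18.3, 83.8 ± 17.6 and 77.2 ± 13.9 CPM, and its groups overlapped throughout.

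Chow-fed Lama4 fl/fl replicate 1 was the highest library of its group for every one of the 8 genes but Pik3r1, for which replicate 6 was level with it. The plot of levels by group shows this library, the low HFD-fed Lama4 AKO group for Insr, Pik3r1 and Pde3b, and the split of the HFD-fed Lama4 fl/fl libraries for Pik3r1.

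**Figure D1:**
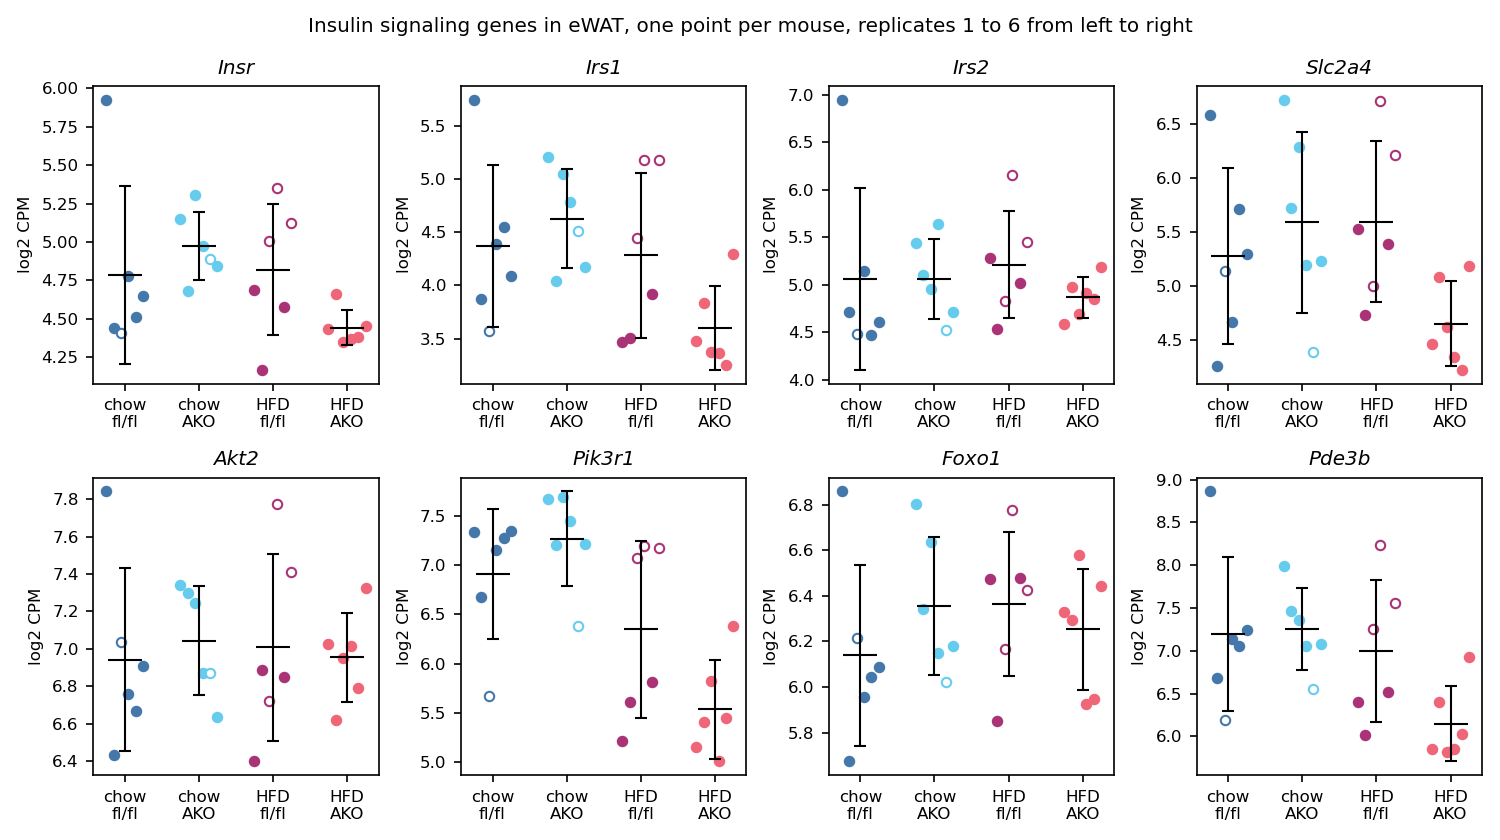
Level of the 8 genes (log2 CPM) in each of the 24 mice, by group, with replicates 1 to 6 from left to right; bars give the mean and SD of 6 mice, and open points are the 5 mice outside the set of 19. Pik3r1 lies between 5.01 and 6.38 in all HFD-fed Lama4 AKO libraries and between 6.39 and 7.69 in all chow-fed Lama4 AKO libraries, while Akt2 and Foxo1 overlap in every group.

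FOXO proteins, which insulin restrains through AKT, bind DNA cores found upstream of several insulin-regulated genes, so the starts of the 8 genes were searched for the letters GTAAACA (the FOXO core) and CAAAACA (the core of the insulin response sequence) on both strands. RefSeq windows (GRCm38.p6) were given for 5 of the 8 genes, Irs1, Irs2, Pik3r1, Akt2 and Foxo1, in 9 windows of 250 bases upstream of a transcript start. GTAAACA was in none of the 9, and 3.17% of 32851 windows over all genes hold it. CAAAACA, read on the other strand as TGTTTTG, was in the windows of Irs1 and Irs2, both receptor substrates, and 5.56% of all windows hold it. The 2 windows with a match are shown 5′ to 3′ on the strand of the gene, with TGTTTTG in capitals, beside the 2 windows of Pik3r1, the one of the 8 with the largest fold change between the diets in Lama4 AKO mice, which hold neither core.
Irs1, chr1:82291440-82291689, minus strand: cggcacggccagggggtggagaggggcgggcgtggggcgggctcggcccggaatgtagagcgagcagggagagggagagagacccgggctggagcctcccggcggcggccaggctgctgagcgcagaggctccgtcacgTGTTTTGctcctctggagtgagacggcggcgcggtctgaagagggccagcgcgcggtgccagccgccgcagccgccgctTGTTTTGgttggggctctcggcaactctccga
Irs2, chr8:11008930-11009179, minus strand: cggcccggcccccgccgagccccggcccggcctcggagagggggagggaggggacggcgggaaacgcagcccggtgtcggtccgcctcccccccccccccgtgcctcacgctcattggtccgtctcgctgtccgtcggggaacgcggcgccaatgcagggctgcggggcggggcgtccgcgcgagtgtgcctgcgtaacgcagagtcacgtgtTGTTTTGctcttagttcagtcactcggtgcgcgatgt
Pik3r1, outer start, chr13:101768218-101768467, minus strand: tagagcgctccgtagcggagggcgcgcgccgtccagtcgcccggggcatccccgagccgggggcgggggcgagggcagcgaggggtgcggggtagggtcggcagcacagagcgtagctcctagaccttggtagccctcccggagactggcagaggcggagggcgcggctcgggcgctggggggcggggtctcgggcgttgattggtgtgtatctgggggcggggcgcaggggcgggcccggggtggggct
Pik3r1, internal start, chr13:101692631-101692880, minus strand: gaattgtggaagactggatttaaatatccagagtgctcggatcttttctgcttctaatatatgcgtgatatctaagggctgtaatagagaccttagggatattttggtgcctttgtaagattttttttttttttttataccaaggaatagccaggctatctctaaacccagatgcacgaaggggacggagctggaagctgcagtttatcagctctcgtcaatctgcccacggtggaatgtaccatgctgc
The matches lie 111 to 105 and 32 to 26 bases upstream of the RefSeq start of Irs1 and 37 to 31 bases upstream of that of Irs2. Both RefSeq starts lie upstream of the gene bounds given above, which end at 82291416 for Irs1 and 11008458 for Irs2. The 2 Pik3r1 windows differ in composition, with 76.4% and 42.4% G and C. A match is a string of letters and not evidence of binding.

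Of the 8 genes, Pik3r1 differed most between the diets in Lama4 AKO mice. Pik3r1 was 3.29-fold lower in HFD-fed than in chow-fed Lama4 AKO mice (log2 fold change -1.72, SE 0.35), with an adjusted p of 0.0124 by edgeR's quasi-likelihood test with Benjamini-Hochberg adjustment over all genes tested. It was the only 1 of the 8 genes called by the study's criteria, which ask for a fold of at least 1.5, an unadjusted p no higher than 0.001 and, in the group with the higher level, an average of 2 CPM or more. Over all genes tested the same criteria called 4.12% of genes in either direction and 2.83% as lower. Pde3b was 2.16-fold lower (log2 fold change -1.11, SE 0.40, adjusted p = 0.0475), Slc2a4 2.15-fold lower (-1.10, SE 0.40, adjusted p = 0.0496) and Irs1 2.07-fold lower (-1.05, SE 0.36, adjusted p = 0.0389) in the same edgeR fit, and none of them met the criterion on the unadjusted p. Insr was 1.46-fold lower (log2 fold change -0.55, SE 0.22, adjusted p = 0.0752). The other 3 genes, Irs2, Foxo1 and Akt2, had log2 fold changes from -0.24 to -0.10. Irs1 and Irs2, whose start windows share TGTTTTG, thus stood at -1.05 and -0.24.

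All 8 log2 fold changes in Lama4 AKO mice lay below 0, with a median of -0.80 against a median of -0.0031 over all genes tested, 50.3% of which lay below 0. An adjusted p of at most 0.05 was reached by 4 of the 8 genes and by 22.1% of all genes, and an unadjusted p under 0.05 by 5 of the 8, all lower, against 21.6% of all genes that were lower at that threshold. Groups did not overlap for Insr and Pik3r1, 2 of the 8 genes, against 4.13% of all genes in that direction. The exact two-sided permutation p of both was 0.00216, the smallest that 6 mice against 6 can give. Groups of 6 that do not overlap always give this p, so it adds nothing to the lack of overlap. Pik3r1 kept its call when any of the 24 mice was left out, with log2 fold changes from -1.94 to -1.63, and also in the set of 19 mice, where 15.7% of all genes were called.

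Markers of the adipocyte moved with these genes. The summed level of the 10 adipocyte markers ranged from 18740 to 63533 CPM in chow-fed Lama4 AKO and from 10442 to 30919 CPM in HFD-fed Lama4 AKO mice. All 10 adipocyte markers had a log2 fold change below 0 in that comparison, with a median of -1.12, and 8 had an unadjusted p under 0.05, among them Adipoq, the gene of adiponectin, at -1.44 and Lipe, the hormone-sensitive lipase, at -1.24, while Pparg was at -0.43. The median of the 8 insulin signaling genes was -0.80. Macrophage markers mostly went the other way, with 9 of 10 above 0, a median of 0.90, 4 higher and 1 lower (Cd163) at an unadjusted p under 0.05 and summed levels of 2315 to 8373 CPM in chow-fed and 6958 to 12555 CPM in HFD-fed Lama4 AKO mice. In bulk tissue, fewer adipocytes and less RNA per adipocyte cannot be told apart, and the part of these markers in the lower levels was not tested. Of the other listed cell types, all 6 endothelial markers were lower with an unadjusted p under 0.05, 4 of 6 mesothelial markers likewise, and none of the T cell, B cell or erythrocyte markers reached that threshold. Of 6 adipocyte progenitor markers 3 were higher at that threshold, and 2 of 4 smooth muscle and 1 of 2 measured skeletal muscle markers were lower. The 3 epididymis markers in the table summed to at most 0.268 CPM in HFD-fed Lama4 AKO and 21.0 CPM in 1 chow-fed Lama4 fl/fl library and were too low to be tested.

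In Lama4 fl/fl mice the same diet gave no call among the 8 genes when all 12 mice of the 2 groups were used. Log2 fold changes of HFD over chow ran from -0.45 for Pik3r1 to 0.29 for Slc2a4, none had an unadjusted p under 0.05, and the lowest adjusted p was 0.705 by edgeR. Few genes of any kind passed in this comparison, since 0.173% of all genes were called and 9.01% had an unadjusted p under 0.05. The 95% confidence interval for Pik3r1, from 0.450 to 1.19 times the chow level, holds both a level 2-fold lower and no change.

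The set of 19 mice gave a different picture in Lama4 fl/fl. There Pik3r1 was 3.05-fold lower on HFD (log2 fold change -1.61, SE 0.27, adjusted p = 0.000506 by edgeR) and was called. The 3 HFD-fed and 5 chow-fed libraries did not overlap for Pik3r1 and Pde3b, 2 of the 8 genes, against 15.5% of all genes in that direction. Pde3b was 2.48-fold lower (log2 fold change -1.31, SE 0.41, adjusted p = 0.0239) and Irs1 2.08-fold lower (-1.05, SE 0.38, adjusted p = 0.0439), short of a call, and the other 5 genes lay between -0.55 and 0.12. By the exact permutation test p was 0.0179 for Pik3r1, the smallest that 3 mice against 5 can give. It was 0.0714 for both Pde3b and Irs1. In that set 11.8% of all genes were called, so a call was far more common there than with 24 mice. The 3 HFD-fed libraries kept are also those with the lowest Pik3r1, Irs1, Insr and Pde3b of their group, and the study chose its set from these same data. The summed adipocyte markers of the 6 HFD-fed Lama4 fl/fl libraries spanned 10863 to 72942 CPM, the widest range of the 4 groups. The kept replicates 1, 2 and 5 were the lowest, at 10863, 13751 and 17866 CPM. Replicates 3, 4 and 6, left out, were at 30336, 72942 and 58003 CPM. The part of the adipocyte markers in this split was not tested.

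**Figure D2:**
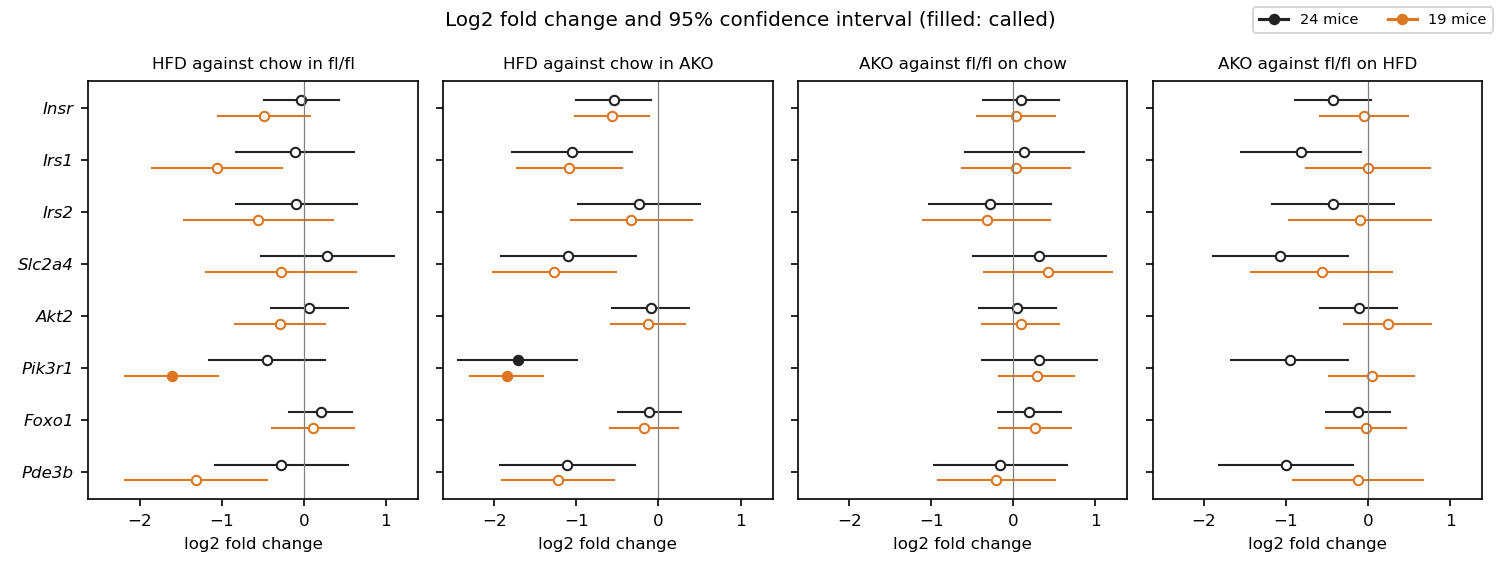
Log2 fold change (x axis) of the 8 genes (y axis) in 4 comparisons, with 95% confidence intervals from edgeR, for all 24 mice (black) and for the set of 19 (orange); filled points met the call criteria. Pik3r1 is called in Lama4 AKO mice with both sets, at -1.72 and -1.85, and in Lama4 fl/fl mice only with 19, and no point is filled in the 2 genotype comparisons.

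On chow, the genotypes did not differ beyond the spread for any of the 8 genes. Log2 fold changes of Lama4 AKO over Lama4 fl/fl ran from -0.28 for Irs2 to 0.32 for Slc2a4 and Pik3r1, the lowest adjusted p was 0.952 by edgeR, and none had an unadjusted p under 0.05, as 5.85% of all genes did. None was called, against 0.113% of all genes.

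On HFD, Slc2a4 was 2.10-fold lower (log2 fold change -1.07, SE 0.40), Pde3b 1.99-fold lower (-0.996, SE 0.40), Pik3r1 1.93-fold lower (-0.95, SE 0.34) and Irs1 1.76-fold lower (-0.81, SE 0.35) in Lama4 AKO than in Lama4 fl/fl mice. Their unadjusted p-values were under 0.05, as were those of 8.99% of all genes that were lower, but adjusted p-values ran from 0.293 to 0.309 by edgeR, and none of the 8 was called, against 0.173% of all genes. The exact two-sided permutation test gave p = 0.0173 for Slc2a4 and 0.0498 for Pde3b, but 0.0866 for Pik3r1 and 0.0887 for Irs1. Insr, Irs2, Foxo1 and Akt2 lay between -0.43 and -0.11. The 2 groups overlapped for every one of the 8 genes, and for Pik3r1, Irs1 and Pde3b HFD-fed Lama4 fl/fl replicates 1, 2 and 5 lay within the range of the HFD-fed Lama4 AKO mice. With the set of 19 mice the log2 fold change was 0.0013 for Irs1, 0.044 for Pik3r1, -0.12 for Pde3b and -0.56 for Slc2a4, and none of the 8 had an unadjusted p under 0.05, as 11.1% of all genes did. All 10 adipocyte markers were below 0 in the same comparison with 24 mice, 5 of them with an unadjusted p under 0.05, and their median was -0.87 against -0.62 for the 8 genes and -0.026 for all genes.

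Whether the response to HFD differed between the genotypes was tested as the interaction of diet and genotype. Slc2a4 was 1.22 times its chow level on HFD in Lama4 fl/fl and 0.466 times in Lama4 AKO mice, which gave an interaction of -1.39 on the log2 scale (SE 0.56, adjusted p = 0.272 by edgeR). For Pik3r1 the corresponding ratios were 0.733 and 0.304 and the interaction was -1.27 (SE 0.48, adjusted p = 0.261). Both had an unadjusted p under 0.05, which 8.74% of all genes reached in that direction, and neither was called, against 0.386% of all genes. The other 6 genes lay between -0.95 and -0.15. With the set of 19 mice the interaction was -0.24 for Pik3r1 and -0.99 for Slc2a4, and none of the 8 reached an unadjusted p under 0.05, as 12.2% of all genes did.

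Averaged over the genotypes, Pik3r1 was 2.12-fold lower on HFD (log2 fold change -1.08, SE 0.24, adjusted p = 0.0196 by edgeR). It was the only one of the 8 called, against 2.25% of all genes. Pde3b (-0.69, SE 0.28, adjusted p = 0.0853) and Irs1 (-0.58, SE 0.25, adjusted p = 0.103) were not called with 24 mice, and the other 5 genes lay between -0.41 and 0.05. With 19 mice all 3 were called, Pik3r1 at -1.73, Pde3b at -1.27 and Irs1 at -1.07, in a set where 21.4% of all genes were called. Averaged over the diets, Pde3b was 1.49-fold lower in Lama4 AKO mice (-0.58, SE 0.28) with an adjusted p of 0.953 by edgeR, the other 7 genes lay between -0.38 and 0.04, and none was called, against 0.0333% of all genes.

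The pathway around these genes was read from 5 lists, which hold 94 distinct tested genes, the 8 among them, and the diet comparison in Lama4 AKO mice is described first. With 24 mice, 5 of the 94 were called there, 1 higher and 4 lower, a share of 5.32% against 4.12% of all genes. At an unadjusted p under 0.05, 26 were lower and 21 higher, while 21.6% of all genes were lower and 18.2% higher. The counts for the single lists below are to be read against these shares. Among receptors, substrates and adaptors, 16 of 18 listed genes were tested, none was called, 7 were lower and 4 higher at an unadjusted p under 0.05, and the median was -0.44 against -0.0031 over all genes. Irs3, a substrate found in rodent adipocytes, was at 20.6 ± 9.13 CPM in chow-fed and 10.5 ± 2.15 CPM in HFD-fed Lama4 AKO mice (SD, n = 6), a log2 fold change of -0.98 with an adjusted p of 0.0386. Sh2b2, an adaptor that binds the receptor, was at -0.75 and Sos1, which links the receptor to RAS, at -0.59.

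Among PI3K subunits, AKT kinases and their activators, all 15 were tested and 2 were called, both as lower. These were Pik3r1 and Pik3c2a, a class II PI3K (log2 fold change -0.93, SE 0.22, adjusted p = 0.0164 by edgeR). At an unadjusted p under 0.05, 4 of the 15 were lower and 3 higher, and the list's median was 0.096. Pik3r3, another regulatory subunit, was at -1.31 (adjusted p = 0.0219) and Pdpk1, the kinase PDK1 that activates AKT, at -0.97 (adjusted p = 0.0227), both short of a call. Akt1 went the other way from Pik3r1 between the genotypes on HFD, at 275 ± 56.5 CPM in Lama4 AKO and 176 ± 52.1 CPM in Lama4 fl/fl mice (log2 fold change 0.65, adjusted p = 0.291).

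Of 20 AKT substrates and downstream effectors, 19 were tested in the diet comparison in Lama4 AKO mice. Of these, 1 was called as higher and 1 as lower, and 5 were higher and 5 lower at an unadjusted p under 0.05. Foxo3, which AKT inhibits like FOXO1, rose from 36.2 ± 11.2 to 71.3 ± 12.3 CPM (log2 fold change 0.98, SE 0.25, adjusted p = 0.0186), while Foxo1 stood at -0.11. Gsk3b, the kinase that restrains glycogen synthesis, fell from 200 ± 27.0 to 132 ± 19.9 CPM (log2 fold change -0.59, SE 0.15, adjusted p = 0.0187). Rps6kb1, the kinase S6K1, was at -0.82 and Tsc1, a brake on mTORC1, at 0.49.

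Of 22 negative regulators, 1 was called, as lower: Ptprf, a receptor tyrosine phosphatase, went from 44.6 ± 9.15 to 24.1 ± 3.37 CPM (log2 fold change -0.89, SE 0.16, adjusted p = 0.0121). Of the whole list, 6 were higher and 5 lower at an unadjusted p under 0.05, and the median was 0.020. The lipid phosphatases Inppl1 and Inpp5d were at 0.60 and 0.95, and Socs6 at 0.39. Inpp5d is mainly a gene of blood cells. The macrophage markers mostly moved the same way, and their part in the level of Inpp5d was not tested.

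None of 23 genes of GLUT4 traffic and glucose uptake was called, and 6 were lower and 3 higher at an unadjusted p under 0.05 with a median of -0.062. Transporters and hexokinases pointed in opposite directions within the list. Slc2a1, the basal transporter GLUT1, was at 14.6 ± 8.96 CPM in chow-fed and 41.3 ± 17.2 CPM in HFD-fed Lama4 AKO mice (log2 fold change 1.52, adjusted p = 0.0239), against -1.10 for Slc2a4. Hk1 was at 0.88 and Hk2, the hexokinase of insulin-sensitive tissues, at -1.33. Mlxipl, the glucose-responsive transcription factor ChREBP, was at -1.08 (adjusted p = 0.0240).

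In the set of 19 mice, 21 of the 94 genes were called in that comparison, 9 higher and 12 lower, a share of 22.3% against 15.7% of all genes. Among them were Pik3r3 at -1.45, Akt1 at 0.83, Slc2a1 at 1.84, Hk1 at 1.06, Hk2 at -1.43 and Mlxipl at -1.19. Averaged over the genotypes, 5 were called with 24 mice, Pik3r1, Pik3r3, Pik3c2a, Ptprf and, as the only one higher, Foxo3, and 28 with 19 mice, 11 higher and 17 lower, where 21.4% of all genes were called.

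In Lama4 fl/fl mice none of the genes of the 5 lists was called in the diet comparison with 24 mice, and the lists held 7 higher and 1 lower gene at an unadjusted p under 0.05, a share of 8.51% against 9.01% of all genes, with Aspscr1, a tether of GLUT4 vesicles, at 0.71 and Akt1s1, an mTORC1 inhibitor, at 0.93 (adjusted p = 0.444 and 0.448). With 19 mice 17 of the 94 were called there, 9 higher and 8 lower, a share of 18.1% against 11.8% of all genes. They included Pik3r3 at -1.48 and Pik3c2a at -1.19, and on the higher side Sh2b1 at 1.39, Akt1s1 at 1.36 and Foxo3 at 0.91. Between the genotypes none was called on either diet with 24 mice. With 19 mice 2 were called on chow, Acly at 0.69 and Ptprf at 0.59, where 0.209% of all genes were called, and none on HFD, where 0.565% of all genes were. The interaction gave no call among the 94 with 24 mice and 1 with 19, Akt1s1 at -1.70, against 0.68% of all genes. The list genes named for the set of 19 mice were chosen after their values were seen. On HFD, Irs3 was at -1.03, Mlxipl at -0.97, Hk2 at -0.91 and Acly, which makes acetyl-CoA for fat synthesis, at -0.64 in Lama4 AKO against Lama4 fl/fl mice, while Socs3 and Ptpn1, 2 inhibitors of the receptor, were at 0.65 and 0.61, all with adjusted p-values of 0.291 to 0.323. The plot of the lists sets the diet response of each gene in Lama4 AKO mice beside those of the 8.

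**Figure D3:**
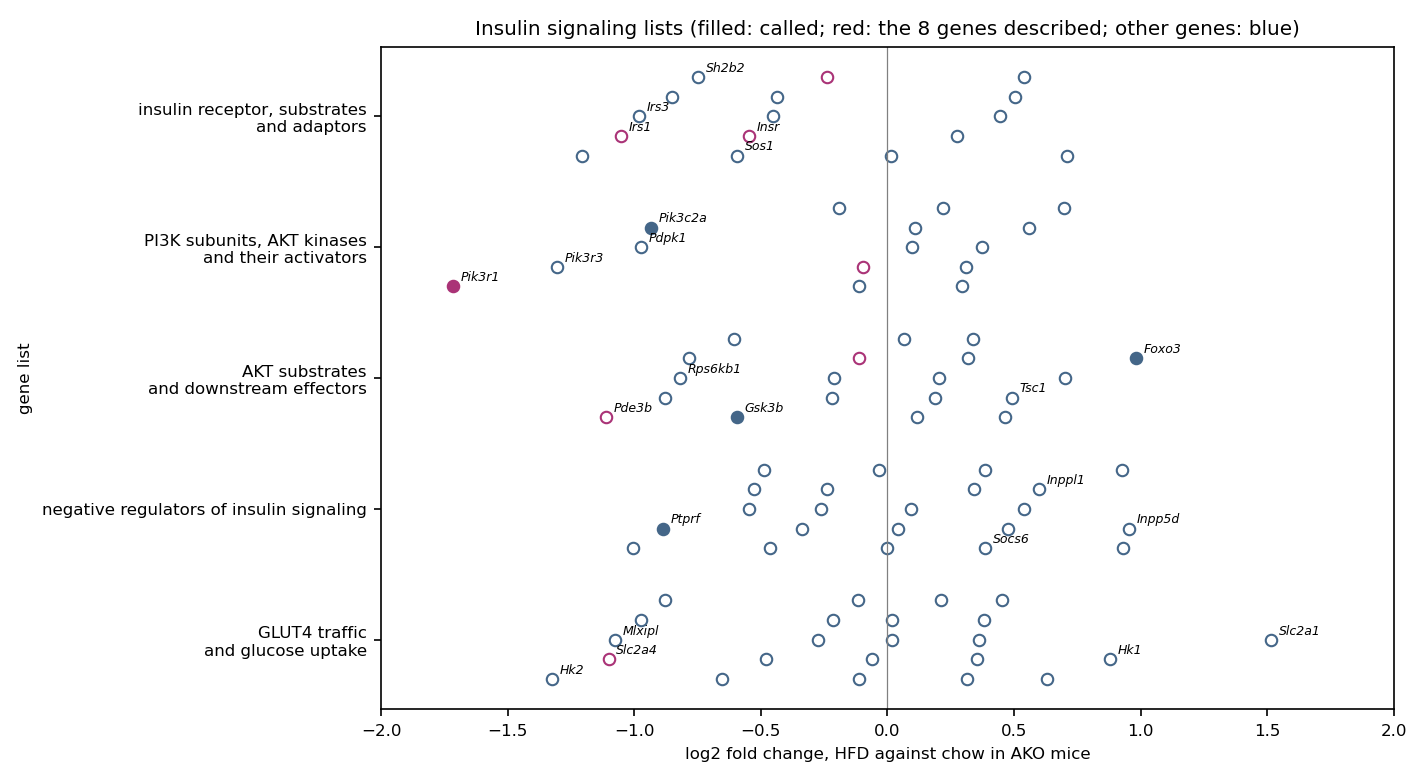
Log2 fold change of HFD over chow in Lama4 AKO mice (x axis) for the tested genes of 5 insulin signaling lists (y axis, spread out for legibility); filled points met the call criteria, red marks the 8 genes described. Named are those of the 8 with an unadjusted p under 0.05 and, in each list, the 4 genes with the lowest p. Pik3r1 is the leftmost point at -1.72 and Slc2a1 the rightmost at 1.52.

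Over the 24 mice with group means removed, the 8 genes varied together. After the group means were removed from log2 CPM, Pearson r over the 24 mice was positive for all 28 pairs, from 0.390 for Pik3r1 with Foxo1 to 0.886 for Irs1 with Pde3b, with a median of 0.707. Permutation within groups, with Benjamini-Hochberg adjustment over the 44 relations computed, gave an adjusted p under 0.05 for 25 of the 28 pairs by Pearson r and for 23 by Spearman rho. The share of other gene pairs that reach this threshold is not given here, so these counts do not set the 8 genes apart from other genes. For Irs1 with Pde3b, rho was 0.796, the adjusted permutation p-values were 0.00011 and 0.00068, and r was 0.810 without the 2 mice farthest from the median of Irs1. Slc2a4 with Foxo1 (r = 0.872, rho = 0.840) and Insr with Irs1 (r = 0.867, rho = 0.870) followed. Leaving out the farthest 2 mice left every r positive but took Insr with Akt2 from 0.654 to 0.294, so that relation rests largely on chow-fed Lama4 fl/fl replicate 1 and HFD-fed Lama4 fl/fl replicate 4. Within the HFD-fed Lama4 AKO mice alone, r was -0.47 for Insr with Akt2 and -0.081 for Irs2 with Foxo1. The other pairs were positive there, as were all pairs within each of the other groups.

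Each of the 8 genes also followed the adipocyte and macrophage markers. The mean log2 CPM of the adipocyte list correlated with them at r = 0.660 for Irs2 to 0.878 for Pde3b, and that of the macrophage list at -0.906 for Pde3b to -0.684 for Pik3r1, and all 16 relations had an adjusted permutation p under 0.05. The share of other genes with such a relation is not given here either. Without the 2 farthest mice the relation of Irs2 with the adipocyte list was 0.490, the lowest of the 8. Within the HFD-fed Lama4 AKO mice alone, r with the adipocyte list was -0.0071 for Insr. It ran from 0.458 for Irs2 to 0.866 for Pik3r1 for the others. Values in 1 library share its depth and its mix of cells, and the part of that mix in these relations was not tested.

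**Figure D4:**
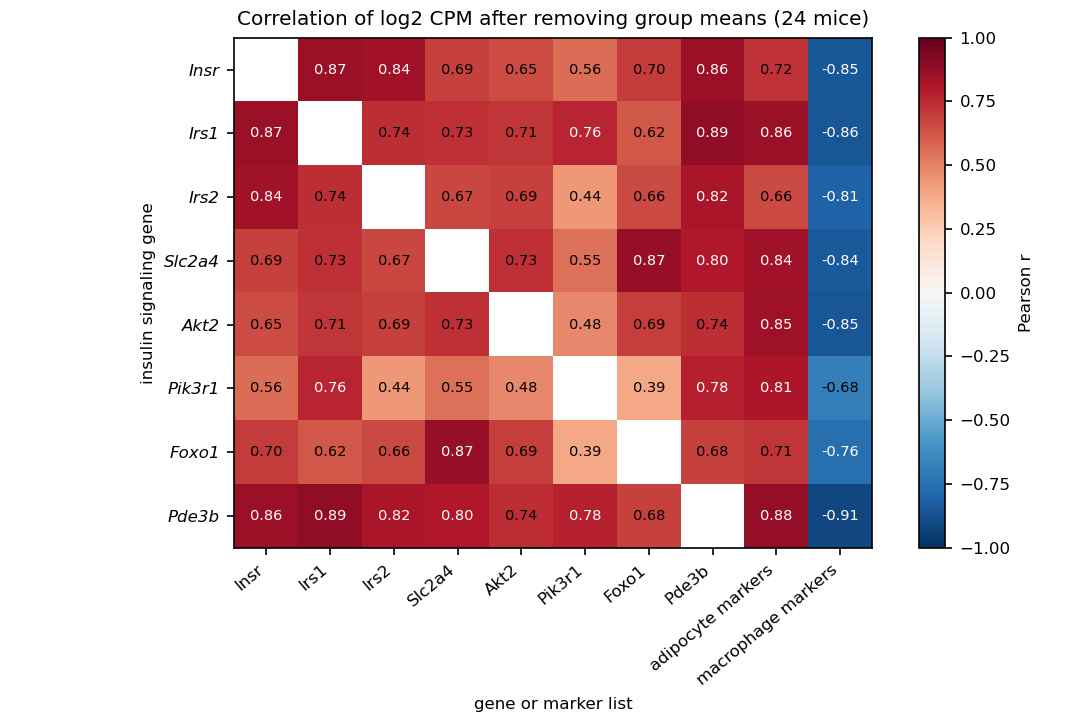
Pearson r of log2 CPM over 24 mice after removal of group means, for each pair of the 8 genes and for each gene with the mean of 10 adipocyte and 10 macrophage markers (colour and printed value). All gene pairs are positive, from 0.39 to 0.89, and all values in the macrophage column are negative, from -0.91 to -0.68.

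**Figure D5:**
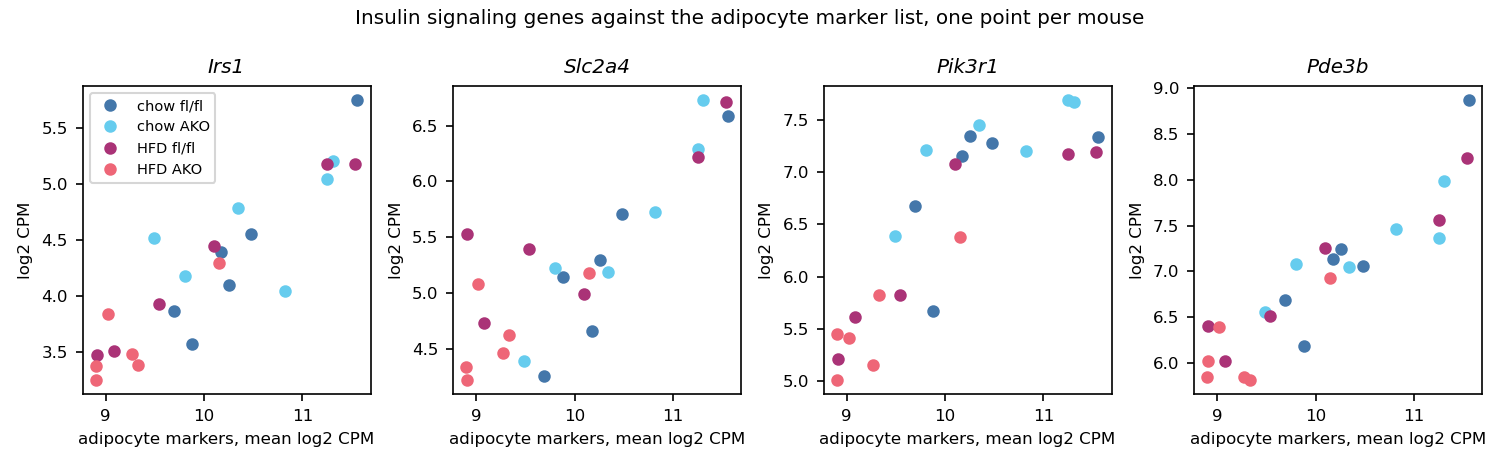
Log2 CPM of Irs1, Slc2a4, Pik3r1 and Pde3b (y axes) against the mean log2 CPM of 10 adipocyte markers (x axes), 1 point per mouse, coloured by group. HFD-fed Lama4 AKO mice (mean 9.26 on the x axis) gather at the lower left and chow-fed Lama4 AKO mice (mean 10.5) lie higher on both axes, with the HFD-fed Lama4 fl/fl mice spread over the range.

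The genes whose level followed each of the 8 most closely were sought among 13257 genes with a symbol, by Pearson r of log2 CPM over the 24 libraries with group means removed. For Slc2a4 they were Acadsb (0.961), Thrsp (0.948) and Scd1 (0.944), the last a desaturase of fat synthesis. For Pde3b they were B3galt2 (0.970), Negr1 (0.962) and Utrn (0.954), and for Pik3r1 Nfib, Plcb1 and Pcm1 (0.951 to 0.948). Irs1 went with Pdzd2 (0.952), Parp16 and Arhgef28, Insr with Ube2h (0.925), Celf2 and Plxna2, and Irs2 with Akap1 (0.892), Lpin1 and Por. The closest to Akt2 were Ctdspl (0.961), Pfkfb3 and Miga2, and to Foxo1 Slc25a23 (0.939), Pygb and Car5b. The median r over all genes compared was between -0.0026 and 0.020 for each of the 8, and these genes are given as a description of likeness only.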

How the data were processed

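The 8 genes and the gene and marker lists were chosen with earlier results of these data known, and no list is independent support for a pattern. The authors aligned and counted reads with the Lexogen QuantSeq pipeline on the Bluebee platform and deposited raw counts per gene and library for GRCm38, without normalization. Read length was 50 bases, and aligner settings and the use of strand in counting are not given in the sources used here. The other deposited file is a signal table, in which the raw counts were scaled by a size factor per library (DESeq2 1.30 under R 4.0.3 per the labels). It gave back whole counts and was used for symbols and coordinates only. Every gene in the table has a total of at least 72 counts, so rarer genes were removed before deposit.

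The tests were run in edgeR 4.0.16 under R 4.3.3. A gene was kept when 3 or more libraries reached 1 CPM, libraries were scaled by TMM, and the quasi-likelihood fit took all 24 libraries with a term for each group. Following the study's methods, a call needed a fold of at least 1.5, an unadjusted p no higher than 0.001 and, in the group with the higher level, an average of 2 CPM or more. P-values were adjusted by Benjamini-Hochberg over the 15020 genes tested, or 14863 in the set of 19 mice. Log2 CPM used a prior count of 2. Single genes were also compared by an exact two-sided permutation test over mice, and relations by 100000 permutations within groups. Fold change, SE and adjusted p are given for those of the 8 genes with an unadjusted p under 0.05 in a comparison, and from each list up to 4 genes with the lowest p under 0.05 are named. Alternatives were size factors of DESeq2, DESeq2 1.42.0, limma-voom from limma 3.58.1, with and without sample quality weights, other filters, only the groups compared, a replicate block, the set of 19 mice, each mouse left out and calls by adjusted p. The fits by edgeR, DESeq2 and limma-voom without quality weights were tested on simulated counts. The permutation tests, the relations and the motif search were not. Precision follows depth: totals ran from 5579590 to 18764516 counts, and the fewest counts behind a value of the 8 genes were 89, for Irs1 in HFD-fed Lama4 AKO replicate 5. No 2 replicates of a group agreed within sampling noise (60 pairs, chi-square per degree of freedom of at least 5.22).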

Additional observations from a re-analysis of the deposited data

Results flagged for a closer look

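Within the groups of 6 mice, 32 in all for the 8 genes, the gap of the highest or lowest library from its nearest neighbour exceeded Dixon's 95% limit in 3, and chance alone gives about 1 in 20 groups. Chow-fed Lama4 fl/fl replicate 1 stood above its group for Insr, at 5.93 log2 CPM, and for Irs2, at 6.95 log2 CPM. HFD-fed Lama4 AKO replicate 2 stood above its group for Insr, at 4.66 log2 CPM, in the group with the least spread for that gene. The response to HFD differed between the genotypes at an unadjusted p under 0.05 for Slc2a4, with an interaction of -1.39 on the log2 scale, and for Pik3r1, with an interaction of -1.27, and neither held after adjustment over all genes.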

How the results depend on the processing

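Of the values recomputed, 797 kept their direction and their side of the call, 12 passed the call only under an alternative, 13 counts of called genes moved and 8 values changed sign. In Lama4 AKO mice the count of the 8 genes called in the diet comparison was 1. It was 4 at an adjusted p of at most 0.05, which 22.1% of all genes reached by edgeR. It was 3 with only the groups compared and 5 by limma-voom with sample quality weights. Those weights also called 2 genes between the genotypes on HFD, Pik3r1 and Pde3b, and 4 for the interaction, where 0 were called, and turned the diet effect in Lama4 fl/fl mice to 0.24 for Irs1 and 0.15 for Pde3b. The shares of all genes called with only the groups compared or with those weights are not given here. Those counts therefore do not set the 8 genes apart from other genes. The set of 19 mice gave 1 call in Lama4 fl/fl and 3 averaged over genotypes. Over the 5 lists, an alternative added after the data were seen, it gave 17 calls for the diet in Lama4 fl/fl mice, 21 in Lama4 AKO mice, 28 averaged over genotypes, 2 between the genotypes on chow and 1 for the interaction, against 0, 5, 5, 0 and 0 with 24 mice. The same set changed signs too: between the genotypes on HFD it turned Irs1 to 0.0013 and Pik3r1 to 0.044. Leaving out 1 mouse gave 0 to 1 calls for the interaction, the 1 being Insr without chow-fed Lama4 fl/fl replicate 1. The diet effect in Lama4 fl/fl mice then ran from -0.31 to 0.32 for Irs1, above 0 without chow-fed Lama4 fl/fl replicate 1 or HFD-fed Lama4 fl/fl replicate 1 or 2, and from -0.61 to 0.29 for Pde3b, above 0 without chow-fed Lama4 fl/fl replicate 1. These alternatives for Irs1, Pik3r1 and Pde3b in Lama4 fl/fl mice were added after the data were seen. The cause of these shifts was not tested.

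Mice with the same replicate number did not deviate together as a whole (36 pairs of libraries, median r 0.0011, 15 over 0.1). Single values of r ran from -0.53 to 0.71, so a link between some of these mice is not excluded, and the numbers were not taken as pairs. A replicate block in the fit changed no call among the 8 genes, with 1 in Lama4 AKO mice and 0 in Lama4 fl/fl mice for the diet. A fit to only the groups compared was not possible for the interaction and the averages, which use all 4 groups.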
